A study of Danio rerio with 35 samples.

Results

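The genes described here encode the structural proteins of the extracellular matrix: fibrillar and network collagens, laminins and their partners, collagen crosslinking enzymes, elastic fibre proteins, adhesive glycoproteins and proteoglycans. They were chosen by symbol from a count table of 14781 genes. The symbol patterns matched 68 genes, of which 50 had at least 10 counts in at least 4 of the 8 libraries. One of these 50, col4a3bpa, names a ceramide transfer protein and was set apart, which left 49 matrix genes in 8 structural groups. Of the 49, 38 had 10 or more counts in all 8 libraries and 10 reached it in all 4 klf1 libraries but in 3 or fewer WT libraries, so that a selection on high klf1 levels is possible among these 10. The remaining gene, col15a1b, reached it through a mixture of libraries.

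The libraries are polyadenylated RNA of whole hearts of adult zebrafish, 4 from WT fish and 4 from fish labelled klf1 overexpressing. Klf1 is a zinc-finger transcription factor best known from red blood cell formation, and the series asks whether it brings about renewal of heart muscle cells. Strain, age, sex, the promoter and cell type of the overexpression and its duration are not given in the labels, and neither is the number of hearts in a library. They do not state whether each library is a different animal, so p-values here measure the spread between these libraries, which may be technical. In a whole-heart sample, a change in the number of cells of a type and a change in RNA per cell cannot be told apart.

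The matrix of a heart holds its cells in place, carries force between them and binds growth factors. Fibrillar collagens assemble outside the cell into cables that lysyl oxidases crosslink. Basement membranes are thin sheets of laminin and type IV collagen, joined by nidogen and heparan sulfate proteoglycans, that surround muscle cells and line vessels. Fibronectin, periostin and tenascin are known from the provisional matrix that forms in injured hearts, and epicardial cells and fibroblasts are among their sources in zebrafish.

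Library totals ranged from 9829896 to 13083853 counts, and a count of 3, the limit that a count of 0 allows, stood for 0.178 to 0.378 CPM (counts scaled to a common library size with TMM factors, which correct for the make-up of a library). That limit covers counting error only. Levels of klf1 itself were 128 to 296 CPM in the WT libraries and 594 to 732 CPM in the klf1 libraries. Of 10493 genes tested by edgeR's quasi-likelihood test, 61.6% were called at an adjusted p under 0.05, 32.2% higher and 29.4% lower in klf1 hearts, and the libraries of the genotypes did not overlap for 57% of them. Scaling by library totals alone, without TMM factors, moved the middle of the log2 fold changes, over the tested genes, from 0.03 to 0.75 and so moved genes upward in general. WT library 3 and klf1 library 1 stood apart in the matrix genes: WT library 3 had the lowest of the 4 WT levels for 29 of the 49 genes, and klf1 library 1 the lowest of the 4 klf1 levels for 33. At the other end, klf1 library 4 had the highest of the 4 klf1 levels for 27 of the 49.

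Of the 49 matrix genes, 25 were called higher and 7 lower in klf1 hearts, and 17 were not called. The share called in either direction, 65.3%, was near the background of 61.6%. The share called higher was 51% against a background of 32.2%, and the share called lower 14.3% against 29.4%. Among the 38 genes with 10 or more counts in every library, 18 were higher (47.4%) and 7 lower (18.4%). Their median log2 fold change (klf1 minus WT) was 0.35, beside 0.03 for all tested genes. The members were chosen with results known, and these counts are descriptions. Libraries of the genotypes did not overlap for 55.1% of the 49 genes, beside 57% of all tested genes. Of the 49, 20 were higher and 7 lower without overlap, beside backgrounds of 29.8% and 27.2%. Among the 38 genes these numbers were 13 and 7 (52.6% without overlap). Among the 10 genes that reached 10 counts in all klf1 libraries but not in all WT libraries, 7 were higher without overlap (70%). A selection on high klf1 levels is possible for these 10, so no result is read from that count. They are part of the 49, and the 38 leave them out. Without both WT library 3 and klf1 library 1, 28 were higher and 7 lower. With library totals alone, 37 were higher and 1 lower, and the lower gene was col2a1b, so 6 of the 7 falls given below were not called without scaling factors. Of all tested genes, 65.1% were higher and 13.3% lower under that setting.

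**Figure D1:**
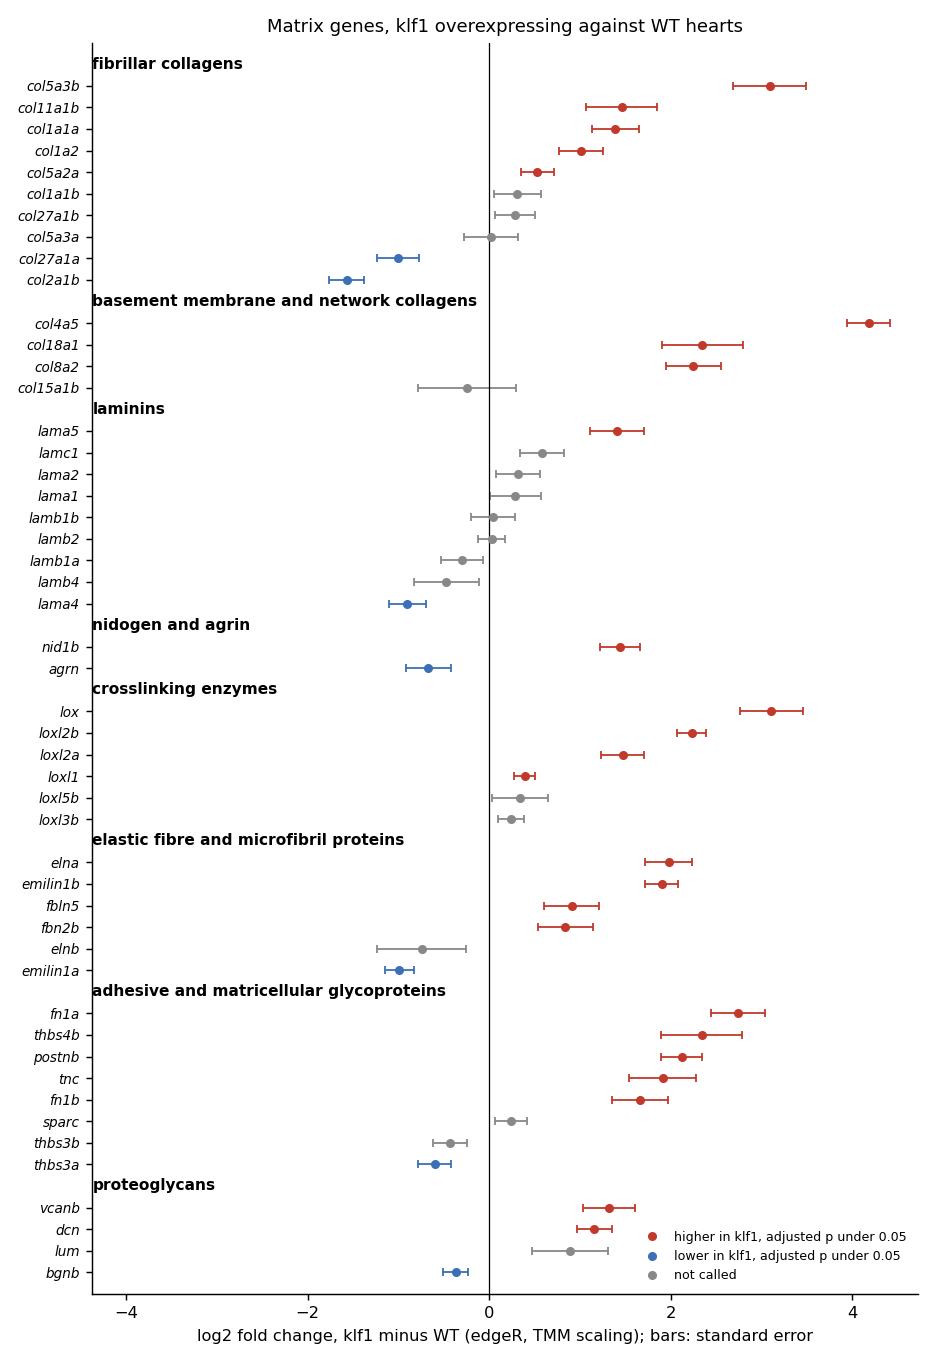
Log2 fold change of the 49 matrix genes, klf1 minus WT, with its standard error, from edgeR with TMM scaling and 4 libraries a genotype; red and blue mark genes called higher and lower at an adjusted p under 0.05. col4a5 lies farthest to the right at 4.18 and col2a1b farthest to the left at -1.57. Of the 9 laminin genes 7 are grey (not called), while 61.6% of all tested genes were called.

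Matrix genes took a larger part of the klf1 libraries. Their summed counts made up 0.338%, 0.375%, 0.266% and 0.393% of WT libraries 1 to 4 and 0.568%, 0.85%, 1.03% and 1.16% of klf1 libraries 1 to 4. The genotypes did not overlap, and the mean was 2.63-fold higher in klf1 hearts (two-sided exact permutation p = 0.0286, which is the lowest value that 70 ways of dividing 8 libraries can give). The rest of the library moved too: the summed level of 17 cardiomyocyte markers was 238000 to 279000 CPM in WT and 35300 to 54500 CPM in klf1 libraries. On the TMM scale the summed matrix level was 3544 to 4777 CPM in WT and 4636 to 9040 CPM in klf1 libraries. The genotypes then overlapped at klf1 library 1.

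Within the matrix counts, the basement membrane share was smaller in klf1 hearts, and the adhesive share was larger, though not without fn1b. Such shares are free of any scaling factor, and they count reads without regard to transcript length. Basement membrane genes (network collagens, laminins, nidogen and agrin) made up 35.3 ± 2.79% of matrix counts in WT and 25.8 ± 1.67% in klf1 hearts (SD, n = 4; exact permutation p = 0.0286). Their share was 31.2% to 37.5% in the WT libraries and 23.7% to 27.8% in the klf1 libraries, without overlap. Most of it was laminins, with 30.5% of matrix counts in WT and 22.1% in klf1 hearts. As a share of all counts, basement membrane genes were higher in klf1 hearts, with means of 0.122% in WT and 0.231% in klf1, without overlap. That share rests on library totals, a scale on which genes in general moved upward (median 0.75 on the log2 scale). After TMM scaling, 5 of the 15 basement membrane genes were called higher, 2 lower and 8 not called. The smaller share of matrix counts thus came without a fall in their share of all counts. A rise of their sum beyond the general upward shift was not tested. The only type IV collagen gene included was col4a5, and the heparan sulfate proteoglycan perlecan was absent from the matched symbols. Adhesive and matricellular glycoproteins rose from 24.6 ± 1.83% to 29.4 ± 2.34% (SD, n = 4; exact permutation p = 0.0286), again without overlap. That rise depended on fn1b: without it the difference of 4.83 percentage points became -2.72. Among the other adhesive genes, the mean shares of fn1a (0.641% and 2.64%) and postnb (0.369% and 1.05%) were also larger in klf1 hearts. Those of thbs3a (8.6% and 3.66%) and, with overlap, sparc (5.62% and 4.23%) were smaller. Fibrillar collagens held 26.3 ± 1.61% and 28.6 ± 3.34% and elastic fibre proteins 4.82 ± 0.545% and 5.09 ± 0.976% (SD, n = 4), with overlapping libraries in each case (exact permutation p = 0.314 and p = 0.714). Without elna, elastic fibre proteins were 1.12 percentage points lower in klf1 hearts (exact permutation p = 0.0286).

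**Figure D2:**
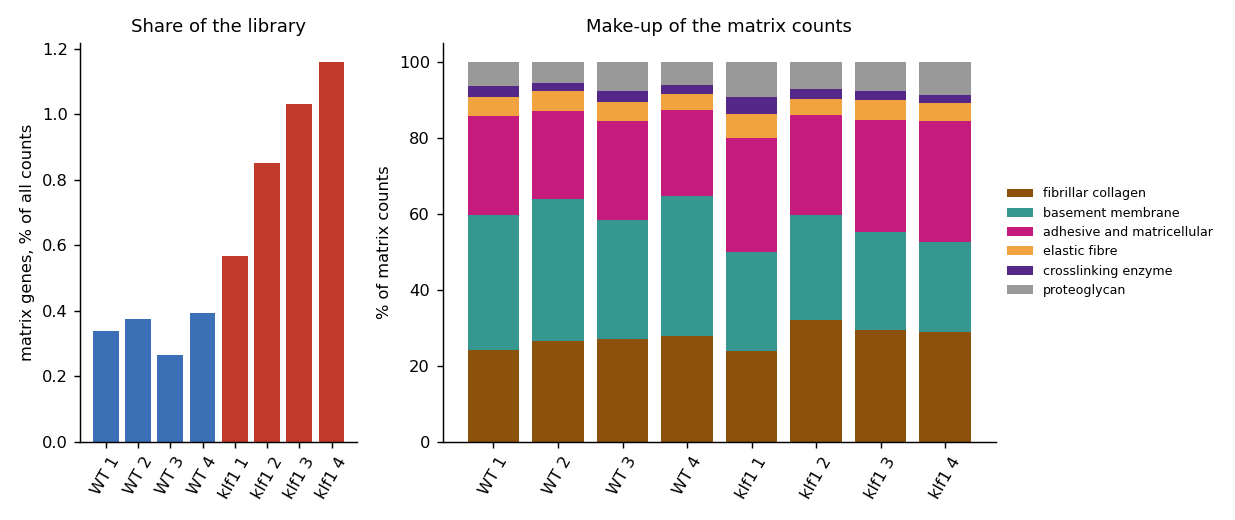
Left, matrix genes as percent of all counts in each library; right, the 6 structural classes as percent of the matrix counts of each library. Bars on the left reach from 0.266% to 0.393% in WT and from 0.568% to 1.16% in klf1 libraries, and the basement membrane segment shrinks from a mean of 35.3% to 25.8%.

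Fibrillar collagens were called in both directions, and the 3 chains of type I collagen did not move as one. Of 10 genes, 5 were higher and 2 lower, so that 70% were called beside 61.6% of all genes. The 5 include col5a3b and col11a1b, for which a selection on high klf1 levels is possible. Zebrafish build type I collagen from the chains encoded by col1a1a, col1a1b and col1a2. Levels of col1a1a were 257, 299, 239 and 345 CPM in WT libraries 1 to 4 and 374, 754, 854 and 996 CPM in klf1 libraries 1 to 4. The genotypes did not overlap, though klf1 library 1 lay close to the highest WT library (log2 fold change 1.39 ± 0.26 SE, n = 4, edgeR adjusted p = 0.000648). Levels of col1a2 were 219, 268, 215 and 271 CPM in WT and 256, 502, 573 and 628 CPM in klf1 libraries. Here klf1 library 1 fell inside the WT range (1.01 ± 0.24 SE, edgeR adjusted p = 0.00321). Levels of col1a1b were 342, 420, 302 and 413 CPM in WT and 221, 511, 512 and 583 CPM in klf1 libraries. klf1 library 1 was below every WT library, and the difference of 0.31 ± 0.26 was not called (edgeR adjusted p = 0.324). Without klf1 library 1 it was 0.52 and was called (edgeR adjusted p = 0.0172), and with library totals alone 1.03.

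Ratios of counts within a library show the shift among these chains free of scaling. WT libraries 1 to 4 held 0.751, 0.711, 0.791 and 0.837 col1a1a counts per col1a1b count, and klf1 libraries 1 to 4 held 1.69, 1.48, 1.67 and 1.71. All 4 klf1 libraries, library 1 included, lay above every WT library (difference in log2 ratio 1.08, exact permutation p = 0.0286, p = 0.0462 adjusted over the 21 pairs). Per col1a2 count, col1a1b counts fell from a WT range of 1.41 to 1.57 down to 0.863 to 1.02 (difference in log2 ratio -0.71) and col1a1a counts went up from 1.11 to 1.27 in WT to 1.46 to 1.59 (0.37), neither with overlap. How the authors' counting treated reads shared by such close paralogs is not given in the sources used here, so each ratio of paralogs is uncertain in its absolute value.

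Other fibril-forming chains were less abundant or moved less. col5a2a, a chain of type V collagen, which sets the diameter of type I fibrils, read 225, 231, 168 and 245 CPM in WT and 239, 295, 344 and 378 CPM in klf1 libraries. The ranges overlapped at klf1 library 1 (log2 fold change 0.53 ± 0.18 SE, n = 4, edgeR adjusted p = 0.0204), and the call was lost without klf1 library 4 (0.42, edgeR adjusted p = 0.069). A second type V chain gene, col5a3b, had 1, 3, 1 and 2 counts in WT and 23, 28, 25 and 38 counts in klf1 libraries. Summed and scaled, its level was 8.97 times that of WT, with a counting interval of 4.22 to 22.8 (95%, exact). The type XI chain gene col11a1b had 3, 9, 10 and 18 counts in WT and 61, 43, 49 and 47 in klf1 libraries, a ratio of 2.75 (1.95 to 3.97, 95% exact). Both were higher in every klf1 library than in any WT library (edgeR adjusted p = 3.25e-05 and 0.00629) and both reached the count minimum in all klf1 libraries and in 2 or fewer WT libraries. Levels of col5a3a were 3.01 to 10.6 CPM in WT and 5.38 to 7.59 CPM in klf1 libraries, and of col27a1b 2.39 to 3.22 and 3.1 to 4.42 CPM, and neither was called.

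The 2 fibrillar genes that were lower were col2a1b and col27a1a. col2a1b, a copy of the gene for type II collagen, best known as the collagen of cartilage, read 10.6, 13.3, 13 and 11.5 CPM in WT and 3.17, 5.51, 3.52 and 3.99 CPM in klf1 libraries. The genotypes lay far apart (log2 fold change -1.57 ± 0.19 SE, n = 4, edgeR adjusted p = 1.81e-05), and this was the 1 matrix gene still called lower with library totals alone. Its paralog col2a1a had no count in any library. col27a1a read 10.9, 14.2, 14.5 and 17.4 CPM in WT and 4.42, 6.24, 8.07 and 9.58 CPM in klf1 libraries. These ranges did not overlap (-1 ± 0.23 SE, edgeR adjusted p = 0.0023), while with library totals alone its difference was -0.29 and was not called. Of 17 cartilage and bone markers in the table, 7 could be tested. Of these 7, 4 were higher and 1 lower, beside backgrounds of 32.2% and 29.4% of all tested genes. The higher ones were sox9a (0.94 ± 0.222 and 13.6 ± 6.43 CPM) and sox9b (0.15 ± 0.113 and 12.7 ± 4.5 CPM; SD, n = 4), transcription factors that act in cartilage and in heart valves, with the matrilin matn4 (52.9 ± 2.42 and 139 ± 61.8 CPM) and mgp, an inhibitor of mineralisation (0.73 ± 0.213 and 3.3 ± 0.88 CPM). The lower one was hapln1a, which links proteoglycans to hyaluronan (29.9 ± 6.34 and 6.27 ± 2.36 CPM; SD, n = 4). Of the untested markers, matn1, epyc and ucmab stayed at or below a mean of 0.498 CPM in each genotype. Untested spp1 (0.0621 ± 0.0717 and 3.52 ± 5.14 CPM, with 11.2 CPM in klf1 library 1) and runx2a (0.24 ± 0.0912 and 0.719 ± 0.108 CPM, SD, n = 4) were higher without overlap. Their WT levels lay at or below the limit of 3 counts. The other untested markers overlapped between genotypes. The part of other tissue in these values was not tested.

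Network collagens held the steepest rise of the matrix genes. col4a5, a chain of type IV collagen, the scaffold of basement membranes, read 1.03, 0.881, 1.69 and 1.35 CPM in WT and 18.7, 22.3, 19.3 and 30.2 CPM in klf1 libraries. Every klf1 library was far above every WT library (log2 fold change 4.18 ± 0.24 SE, n = 4, edgeR adjusted p = 8.33e-08). The WT values rest on 7 to 14 counts a library and the klf1 values on 254 to 507. The symbol patterns matched no other type IV chain gene in the count table, so other chains are not part of these values. col18a1, a heparan sulfate proteoglycan of basement membranes whose fragment is endostatin, read 22.2, 24.3, 7.47 and 26.9 CPM in WT and 45.6, 80, 165 and 121 CPM in klf1 libraries. The genotypes did not overlap, and spread within klf1 hearts was wide (2.35 ± 0.45 SE, edgeR adjusted p = 0.00116). col8a2, a short-chain collagen that forms open networks, read 0.482 to 1.15 CPM in WT and 3.02 to 4.4 CPM in klf1 libraries (2.25 ± 0.3 SE, edgeR adjusted p = 3.94e-05). Both col4a5 and col8a2 reached the count minimum in all klf1 libraries and in 2 or fewer WT libraries. col15a1b stayed between 0.442 and 2.64 CPM in all libraries and was not called.

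Laminins were the group with the smallest share of calls, 22.2% beside 61.6% of all tested genes, and their alpha chains changed places. Each laminin is a trimer of an alpha, a beta and a gamma chain. Of 9 laminin genes 1 was higher and 1 lower, beside backgrounds of 32.2% and 29.4% of all tested genes. The other 7 were not called, and the median of the 9 was 0.04 (log2 fold change). The alpha chain gene lama5 read 99.9, 109, 52.1 and 91.1 CPM in WT and 129, 191, 256 and 360 CPM in klf1 libraries. All klf1 libraries were above all WT libraries (log2 fold change 1.41 ± 0.3 SE, n = 4, edgeR adjusted p = 0.00157). Levels of lama4, an alpha chain typical of vessel basement membranes, were 228, 279, 166 and 255 CPM in WT and 86.4, 159, 120 and 130 CPM in klf1 libraries. They were lower in every klf1 library than in any WT library (-0.9 ± 0.2 SE, edgeR adjusted p = 0.0022), but with library totals alone the difference was -0.19 and was not called.

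The ratio of the alpha chains does not need a scaling factor. For each lama5 count there were 2.28 to 3.19 lama4 counts in WT libraries and 0.362 to 0.835 in klf1 libraries. The order of the pair was reversed in every klf1 library (difference in log2 ratio -2.27, exact permutation p = 0.0286, p = 0.0462 adjusted over the 21 pairs). Against lama2, the alpha chain of muscle basement membranes, lama4 also lost ground: lama2 counts per lama4 count were 0.171 to 0.272 in WT and 0.377 to 0.614 in klf1 libraries (1.27). lama2 itself read 28.3 to 69.2 and 43.7 to 73.6 CPM and was not called, and lama1 read 2.77 to 5.02 and 3.02 to 6.72 CPM.

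Beta and gamma chains, which the alpha chains share, were mostly level within their error. lamb2 read 443, 519, 393 and 496 CPM in WT and 396, 468, 513 and 515 CPM in klf1 libraries, ranges that overlapped almost wholly (log2 fold change 0.03 ± 0.15 SE, n = 4, edgeR adjusted p = 0.869). For lamc1 the values were 315, 326, 164 and 318 CPM in WT and 275, 454, 470 and 484 CPM in klf1 libraries. Its difference of 0.58 ± 0.24 just missed the threshold (edgeR adjusted p = 0.0531). Without klf1 library 1, the lowest of its group, it was 0.73 and was called (edgeR adjusted p = 0.0138), as it was by DESeq2 (0.56), with upper-quartile factors (0.66) and with either other count filter. lamb1a read 56.9 to 104 and 49.5 to 99.3 CPM, lamb1b 90.7 to 155 and 81.7 to 192 CPM, and lamb4 0.805 to 2.57 and 0.853 to 1.78 CPM. Per lamc1 count, lamb1a went from between 0.31 and 0.347 to between 0.141 and 0.211, without overlap (difference in log2 ratio -0.91). The summed level of 23 endothelial markers was lowest in the same libraries in which laminins were low, at 3750 CPM in WT library 3 against 4760 to 4950 CPM in the other WT libraries, and at 3270 CPM in klf1 library 1 against 3950 to 5080 CPM. These 2 libraries were lowest in their groups for 29 and 33 of all 49 matrix genes, so this pattern was not particular to laminins. In WT library 3 the sums of the smooth muscle, receptor and TGF-beta genes given below were lowest too (756, 656 and 969 CPM). Among klf1 libraries those 3 sums were lowest in library 2 (610, 1280 and 2150 CPM). Of the 23 endothelial markers 3 were higher and 9 lower, beside backgrounds of 32.2% and 29.4% (median log2 fold change -0.25). The lower ones included podxl (1140 ± 166 and 460 ± 25.2 CPM) and kdrl, a receptor for vascular endothelial growth factor (372 ± 80.3 and 199 ± 43.2 CPM). The higher ones were vwf (983 ± 254 and 1790 ± 618 CPM), stab2 (8.3 ± 2.24 and 35.5 ± 6 CPM) and klf2b (17 ± 2.52 and 31.6 ± 7.49 CPM, SD, n = 4). The sum thus mixes large markers that moved in opposite directions. The part of endothelial cells in the laminin values was not tested.

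The linkers of the basement membrane moved apart. nid1b, a nidogen that joins laminin to type IV collagen, read 7.82, 7.05, 5.18 and 7.72 CPM in WT and 12.4, 16.7, 23.5 and 22.8 CPM in klf1 libraries. The genotypes did not overlap (log2 fold change 1.44 ± 0.22 SE, n = 4, edgeR adjusted p = 0.000125). Per lamc1 count it went from between 0.0216 and 0.0316 to between 0.0369 and 0.05 (difference in log2 ratio 0.8, exact permutation p = 0.0286, or p = 0.0571 without klf1 library 3). agrn, a heparan sulfate proteoglycan that binds laminin and dystroglycan, read 175, 208, 136 and 211 CPM in WT and 57.7, 142, 140 and 118 CPM in klf1 libraries. Ranges overlapped between WT library 3 and klf1 libraries 2 and 3 (-0.67 ± 0.25 SE, edgeR adjusted p = 0.0372). Its call was lost without WT library 1, 2 or 4 or klf1 library 4, with an adjusted p of up to 0.0889, and with library totals alone the difference was 0.05.

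**Figure D3:**
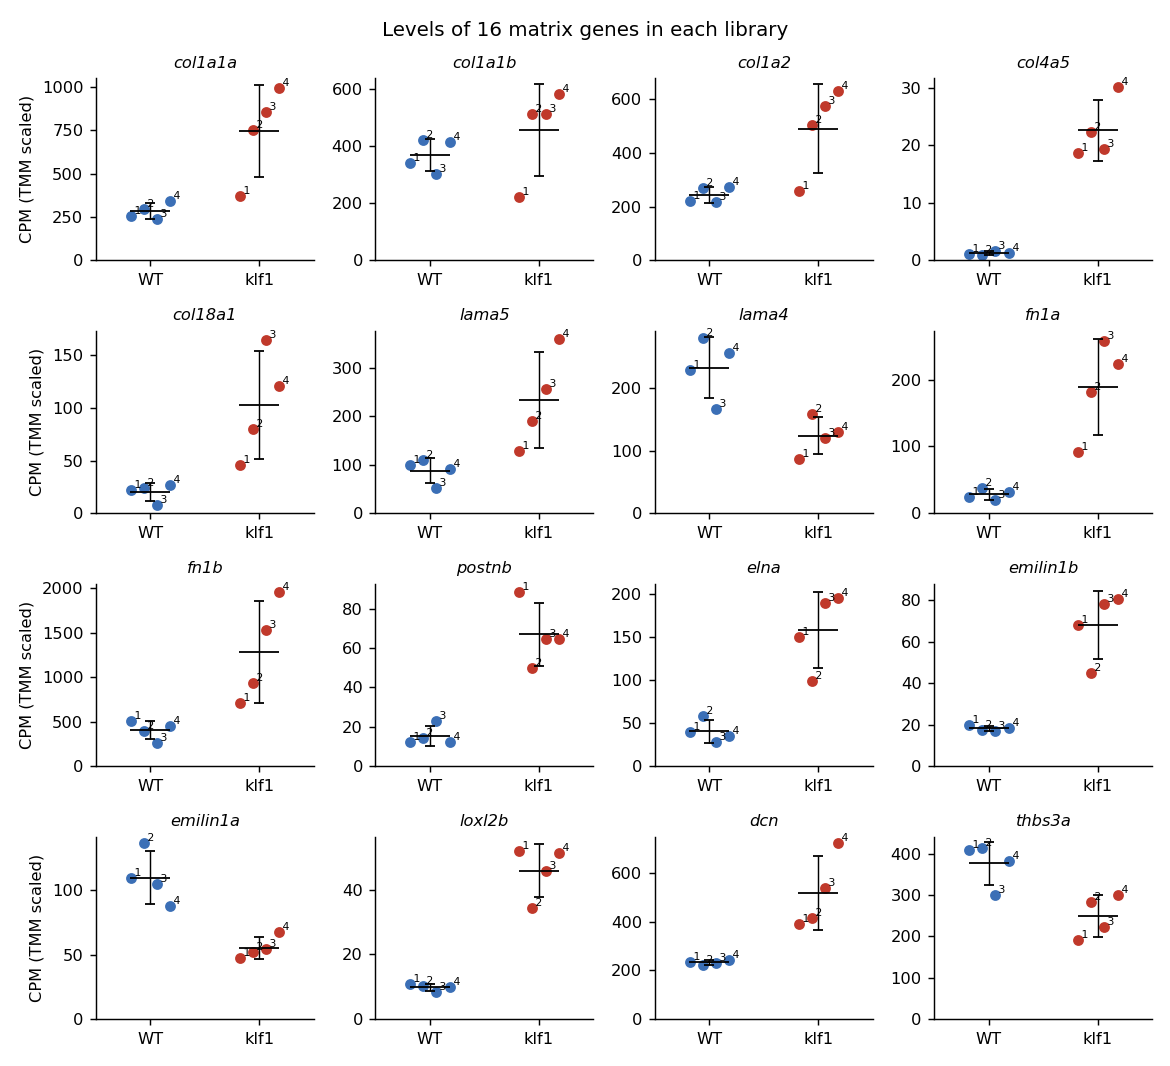
Levels of 16 matrix genes in CPM (TMM scaled), on linear axes from 0; numbered points are libraries, the horizontal line is the mean and the bar the standard deviation of 4 libraries. klf1 library 1 is the lowest of its group for col1a1a at 374 CPM, for lama5 at 129 CPM and for fn1b at 706 CPM, and the highest for postnb at 88.6 CPM.

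Genes of the lysyl oxidase family, which crosslink collagen and elastin, were higher or not called. Of 6 genes, 4 were called higher and none lower, beside backgrounds of 32.2% and 29.4% of all tested genes. The 6 include lox, called higher, and loxl5b, not called, which reached the count minimum in all klf1 but not in all WT libraries. loxl2b read 10.9, 10.1, 8.2 and 9.8 CPM in WT and 51.9, 34.2, 45.7 and 51.3 CPM in klf1 libraries. Its groups were widely separated (log2 fold change 2.23 ± 0.16 SE, n = 4, edgeR adjusted p = 3.62e-07). The paralog loxl2a read 6.67, 5.54, 5.43 and 4.65 CPM in WT and 22.6, 11.4, 16.9 and 11.1 CPM in klf1 libraries (1.47 ± 0.24 SE, edgeR adjusted p = 0.000231). The paralog balance moved toward loxl2b: loxl2a counts per loxl2b count were 0.475 to 0.662 in WT and 0.216 to 0.436 in klf1 libraries (difference in log2 ratio -0.8, exact permutation p = 0.0286). Without klf1 library 4 or any 1 WT library that p was 0.0571, with a difference of -0.6 to -0.89. The founding member lox had 6, 3, 4 and 2 counts in WT and 53, 64, 39 and 86 in klf1 libraries, a scaled ratio of 8.89 with a counting interval of 5.28 to 16.1 (95%, exact; edgeR adjusted p = 1.09e-05). It reached the count minimum in no WT library. Levels of loxl1, which acts on elastin, were 96.2, 78, 74.6 and 83.5 CPM in WT and 114, 105, 115 and 102 CPM in klf1 libraries, a small difference without overlap (0.39 ± 0.12 SE, edgeR adjusted p = 0.0127). loxl3b read 9.77 to 12.9 and 10.9 to 14 CPM and loxl5b 0.857 to 1.38 and 1.05 to 1.79 CPM, and neither was called.

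Of 6 elastic fibre genes, 4 were higher and 1 lower, beside backgrounds of 32.2% and 29.4% of all tested genes. Elastin is the recoil protein of arteries and of the fish outflow tract, and zebrafish have 2 copies, elna and elnb. elna read 39.8, 58.5, 27.4 and 35 CPM in WT and 150, 98.8, 189 and 195 CPM in klf1 libraries. All klf1 libraries were above all WT libraries (log2 fold change 1.98 ± 0.26 SE, n = 4, edgeR adjusted p = 3.36e-05). elnb read 15.6, 5.16, 2.65 and 4.53 CPM in WT and 3.83, 4.92, 2 and 5.95 CPM in klf1 libraries, with WT library 1 well above the rest. It was not called (-0.74 ± 0.49 SE, edgeR adjusted p = 0.214), and without WT library 1 the difference was 0.02. Counts of elna per elnb count were 2.54 to 11.3 in WT and 20.1 to 94.5 in klf1 libraries (difference in log2 ratio 2.51, exact permutation p = 0.0286), or 2.04 without WT library 1 (exact permutation p = 0.0571).

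Emilins, glycoproteins at the surface of elastic fibres, gave the widest shift in ratio of the pairs compared, with 1 paralog higher and the other lower. emilin1a read 110, 137, 105 and 87.9 CPM in WT and 47.2, 51.9, 54.3 and 67.5 CPM in klf1 libraries (log2 fold change -0.99 ± 0.16 SE, n = 4, edgeR adjusted p = 0.000183). emilin1b read 20, 17.5, 16.9 and 18.2 CPM in WT and 68.3, 44.8, 78.3 and 80.7 CPM in klf1 libraries (1.9 ± 0.18 SE, edgeR adjusted p = 2.7e-06). Neither gene overlapped between genotypes. There were 4.82 to 7.85 emilin1a counts per emilin1b count in WT and 0.69 to 1.16 in klf1 libraries (difference in log2 ratio -2.86, exact permutation p = 0.0286, p = 0.0462 adjusted over the 21 pairs). With library totals alone emilin1a was at -0.27 and was not called. fbln5, which guides elastic fibre assembly, read 1.61 to 2.41 and 1.99 to 4.76 CPM, and fbn2b, a fibrillin of microfibrils, 22.7 to 42.9 and 25.9 to 76.6 CPM. Both overlapped at klf1 library 1 and were called narrowly (0.91 ± 0.3 and 0.84 ± 0.3 SE, edgeR adjusted p = 0.0208 and 0.0279). Leaving out single libraries raised their adjusted p to as much as 0.0605 and 0.092. Smooth muscle and mural cells are a possible source of elastic matrix. Of their 9 tested markers, 3 were higher and 2 lower, beside backgrounds of 32.2% and 29.4%. Their summed level was 756 to 988 CPM in WT and 610 to 747 CPM in klf1 libraries, but without abcc9, a potassium channel subunit, it was 348 to 502 and 514 to 660 CPM, the opposite direction. The lower genes were abcc9 (502 ± 77.5 and 81.4 ± 12.5 CPM) and rgs5a (57.9 ± 16.3 and 13.7 ± 3.46 CPM). The higher ones were the actin-binding tagln (22.6 ± 4.48 and 118 ± 49.8 CPM) and tagln2 (78.2 ± 8.56 and 141 ± 24.1 CPM) and the channel subunit kcne4 (6.07 ± 2.34 and 21.1 ± 8.39 CPM). The smooth muscle actin acta2 (103 ± 22.9 and 128 ± 21.9 CPM) and the myosin myh11a (56.5 ± 18.1 and 49.1 ± 14.6 CPM; SD, n = 4) were not called, and their part in the elastic fibre values was not tested.

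Fibronectin genes rose strongly. Fibronectin is laid down early in wounds and is bound by integrins. Of 8 adhesive and matricellular genes, 5 were higher and 1 lower, beside backgrounds of 32.2% and 29.4% of all tested genes. Of the 5, tnc and thbs4b reached the count minimum in all klf1 but not in all WT libraries. A selection on high klf1 levels is possible for them, so the count of 5 is a description only. fn1b read 507, 399, 262 and 454 CPM in WT and 706, 936, 1530 and 1960 CPM in klf1 libraries. No klf1 library reached down to the WT range (log2 fold change 1.66 ± 0.31 SE, n = 4, edgeR adjusted p = 0.000611), and fn1b alone took 7.39% to 11.3% of matrix counts in WT and 14.3% to 21.7% in klf1 libraries. fn1a read 24.1, 38.1, 19.9 and 31.4 CPM in WT and 92.2, 182, 258 and 223 CPM in klf1 libraries (2.74 ± 0.3 SE, edgeR adjusted p = 9.74e-06). The paralog balance also moved: fn1a counts per fn1b count were 0.0477 to 0.0956 in WT and 0.114 to 0.195 in klf1 libraries (difference in log2 ratio 1.09, exact permutation p = 0.0286). Without klf1 library 2 or 3 it was 0.96 or 1.03 (exact permutation p = 0.0571).

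Periostin and tenascin, both known from remodelling hearts, were higher as well. postnb read 12.3, 14.2, 22.8 and 12.4 CPM in WT and 88.6, 49.7, 64.7 and 64.8 CPM in klf1 libraries (log2 fold change 2.12 ± 0.23 SE, n = 4, edgeR adjusted p = 7.3e-06). Unlike the type I collagen genes, it was highest in klf1 library 1 and in WT library 3. tnc had 2, 9, 6 and 7 counts in WT and 29, 43, 35 and 61 in klf1 libraries, a scaled ratio of 3.86 (2.5 to 6.19, 95% exact; edgeR adjusted p = 0.000811). Thrombospondin genes divided: thbs4b had 5, 6, 14 and 3 counts in WT and 64, 94, 29 and 75 in klf1 libraries (ratio 5.15, 3.48 to 7.91, 95% exact; edgeR adjusted p = 0.000756). tnc reached the count minimum in no WT library and thbs4b in 1. thbs3a read 409, 414, 301 and 382 CPM in WT and 192, 284, 222 and 299 CPM in klf1 libraries. Its groups were only just apart (-0.6 ± 0.18 SE, edgeR adjusted p = 0.0109), and the direction turned with library totals alone (0.12). Among matrix counts, thbs3a went from 8.6 ± 0.445% to 3.66 ± 0.712% (SD, n = 4; exact permutation p = 0.0286). thbs3b read 4.94 to 7.72 and 4.28 to 4.9 CPM, without overlap, and was not called (-0.43 ± 0.19 SE, edgeR adjusted p = 0.0613); without WT library 3 it was (-0.53, edgeR adjusted p = 0.0277), as without WT library 2 (-0.51, edgeR adjusted p = 0.0493). sparc, a collagen-binding protein, read 206, 230, 317 and 196 CPM in WT and 296, 250, 243 and 328 CPM in klf1 libraries. WT library 3 was among the highest, and the difference of 0.24 ± 0.18 was called when that library was left out, alone (0.4, edgeR adjusted p = 0.0324) or with klf1 library 1 (0.36), and with library totals alone (0.96).

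Proteoglycans were led by decorin. dcn, a small leucine-rich proteoglycan that binds collagen fibrils, read 233, 223, 228 and 244 CPM in WT and 391, 415, 538 and 723 CPM in klf1 libraries. WT libraries were tight and all klf1 libraries lay above them (log2 fold change 1.16 ± 0.19 SE, n = 4, edgeR adjusted p = 0.00025). vcanb, a versican, the large hyaluronan-binding proteoglycan of valves and of the developing heart, read 13.6, 9.69, 6.39 and 11 CPM in WT and 12.9, 35.1, 25.2 and 28.1 CPM in klf1 libraries. Only klf1 library 1 lay within the WT range (1.32 ± 0.29 SE, edgeR adjusted p = 0.00188). bgnb, a biglycan, read 33.6, 31.2, 33.4 and 35.8 CPM in WT and 22.9, 21.3, 29.7 and 29.3 CPM in klf1 libraries. This small fall without overlap (-0.37 ± 0.14 SE, edgeR adjusted p = 0.031) lost its call with upper-quartile factors (-0.3) and without any of 4 single libraries, and turned to 0.34 with library totals alone. lum, the lumican gene, read 1.1 to 3.38 and 1.66 to 5.71 CPM and was not called.

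**Figure D4:**
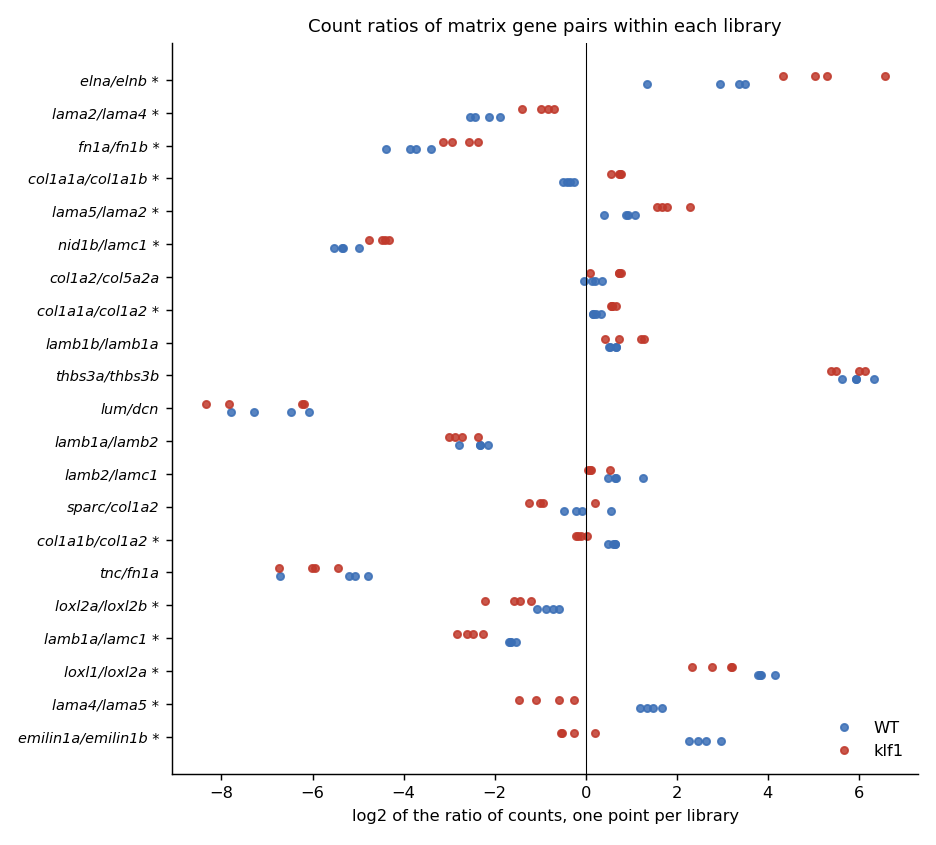
Log2 of the ratio of counts of 21 pairs of matrix genes, 1 point per library, blue for WT and red for klf1; an asterisk marks the 13 pairs whose genotypes do not overlap. The emilin1a/emilin1b pair shifts furthest to the left, by -2.86, and elna/elnb furthest to the right, by 2.51.

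Of the 21 pairs whose ratios were computed, 13 did not overlap between genotypes, 7 with a higher and 6 with a lower ratio in klf1 hearts. Of all tested single genes, 57% did not overlap. Each of the 13 had an exact permutation p of 0.0286, the lowest possible, and 0.0462 after Benjamini-Hochberg adjustment over the pairs. The adjusted value therefore depends on which pairs were listed, and they were chosen with results known. Pairs that share a gene, such as those of the type I collagen chains, are not independent. Beside those given above, loxl1 counts per loxl2a count went from between 13.8 and 17.9 to between 5.05 and 9.25, and lama5 counts per lama2 count from between 1.32 and 2.12 to between 2.95 and 4.9. Counts of col1a2 per col5a2a count overlapped (0.973 to 1.28 and 1.07 to 1.7), as did those of lamb1a per lamb2 (0.145 to 0.225 and 0.125 to 0.194) and of thbs3a per thbs3b (49.6 to 80.3 and 42.1 to 69.8).

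Genes that process collagen inside the cell and around it were mostly higher. Of 47 listed, 28 were in the table and 25 were tested; 13 were higher and 5 lower beside backgrounds of 32.2% and 29.4% of all genes, and the median was 0.72 (log2 fold change). pcolce2b, an enhancer of the protease that trims procollagen, read 23.2, 18.8, 15.7 and 27.3 CPM in WT and 532, 126, 275 and 259 CPM in klf1 libraries, far apart in every case (3.81 ± 0.39 SE, n = 4, edgeR adjusted p = 7.85e-06). plod2, which hydroxylates the lysines used for crosslinks, rose from 48.8 ± 7.19 to 170 ± 37.1 CPM (SD, n = 4). serpinh1a, the collagen chaperone, rose from 42 ± 4.51 to 145 ± 28 CPM and its paralog serpinh1b from 11.3 ± 1.65 to 24.4 ± 4.65 CPM (SD, n = 4). fkbp10b, a prolyl isomerase of the same compartment, rose by 1.35 ± 0.18 (SE) on the log2 scale. klf1 library 1, lowest for type I collagen, was the highest of its group for pcolce2b and serpinh1a (177 CPM). The 5 lower genes were pcolceb (2.06 ± 0.774 and 0.22 ± 0.127 CPM), the procollagen protease tll1 (30.4 ± 7.6 and 12.8 ± 3.56 CPM), ctage5 and sec23a of the secretory route and crtap, a partner of prolyl hydroxylation (41.3 ± 6.23 and 26.7 ± 3.3 CPM; SD, n = 4). With library totals alone pcolceb was the one gene of these called lower, and sec23a was called higher (0.3). The catalytic prolyl hydroxylase subunits p4ha1a (22.3 ± 3.83 and 21.8 ± 2.72 CPM) and p4ha1b (67.6 ± 10.6 and 74.5 ± 9.75 CPM; SD, n = 4) were not called, while p4ha2 rose by 0.72 ± 0.17 (SE).

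Genes for receptors of matrix proteins were mostly higher. Of 37 listed, 18 were in the table and 16 tested; 11 were higher and 2 lower beside the same backgrounds, and the median was 1.05. bcam, a receptor that binds the laminin alpha chain encoded by lama5, read 30.4, 28.8, 44.1 and 31.4 CPM in WT and 340, 242, 334 and 419 CPM in klf1 libraries. Nothing overlapped (log2 fold change 3.31 ± 0.21 SE, n = 4, edgeR adjusted p = 1.27e-07). Of the integrin chains that bind fibronectin, itgav rose from 52 ± 8.15 to 149 ± 15.4 CPM and itgb3b from 15.2 ± 6.08 to 93.1 ± 15.6 CPM (SD, n = 4), whereas itga5, the alpha chain of the classical fibronectin receptor, read 337, 273, 176 and 283 CPM in WT and 108, 95.8, 95.4 and 74.5 CPM in klf1 libraries. itga5 was lower in every klf1 library than in any WT library (-1.51 ± 0.2 SE, edgeR adjusted p = 3.33e-05). The laminin-binding chain itgb4 rose from 5.22 ± 1.7 to 26.4 ± 6 CPM and itgb1b.1 from 5.15 ± 0.954 to 16.9 ± 2.1 CPM (SD, n = 4). itga11a, a collagen receptor chain, was the other lower gene (2.63 ± 0.851 and 1.2 ± 0.281 CPM), and was not called with library totals alone (-0.41). dag1, the dystroglycan that agrin and laminin bind, read 159 ± 43.8 and 128 ± 34.8 CPM (SD, n = 4) and was not called.

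**Figure D5:**
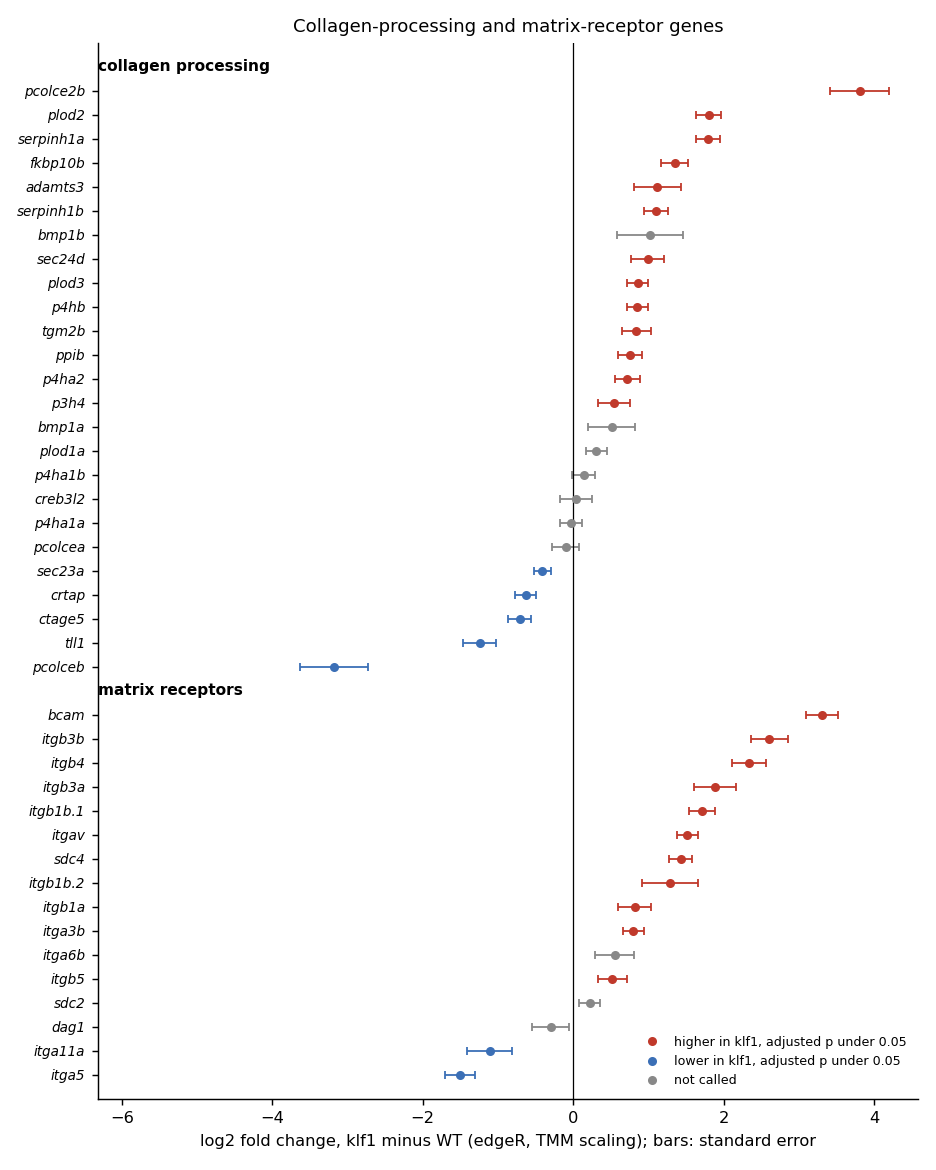
Log2 fold change, klf1 minus WT, with its standard error, of the 25 collagen-processing and 16 matrix-receptor genes tested by edgeR; red and blue mark calls at an adjusted p under 0.05. pcolce2b (3.81) and bcam (3.31) lie farthest to the right, and pcolceb (-3.18) and itga5 (-1.51) are the lowest of their lists.

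TGF-beta signalling is a known inducer of matrix genes, and its components went both ways. Of 41 listed, 24 were in the table and 23 tested; 13 were higher and 5 lower beside backgrounds of 32.2% and 29.4%, and the median was 0.62 (log2 fold change). The ligand genes were not alike: tgfb2 fell from 231 ± 17.5 to 101 ± 14.1 CPM, tgfb3 rose from 114 ± 19.1 to 175 ± 15.3 CPM, and tgfb1a read 27 ± 4.59 and 28 ± 3.97 CPM (SD, n = 4) and was not called. ctgfa, a matricellular factor, rose from 45.5 ± 8.34 to 502 ± 78.6 CPM (SD, n = 4). The transducer smad3b fell by 1.6 on the log2 scale (SE 0.17), while smad3a rose by 0.62 ± 0.16 (SE). ltbp3, which stores the latent ligand in the matrix, rose from 187 ± 41.6 to 481 ± 110 CPM (SD, n = 4). inhbb was among the lower genes (49.5 ± 11.8 and 10.9 ± 2.01 CPM; SD, n = 4).

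Marker lists of cell types moved in different directions. Of all tested genes, 32.2% were higher and 29.4% lower. Of 14 tested fibroblast and epicardial markers outside the matrix list, 10 were higher and 1 lower (median log2 fold change 0.82), and their summed level was 623 to 658 CPM in WT and 2100 to 3120 CPM in klf1 libraries. The rise was uneven. In klf1 hearts the sum was led by krt18 (181 ± 15.7 and 1150 ± 282 CPM) and aldh1a2 (82.1 ± 14.9 and 586 ± 65.7 CPM). Next came timp2b, which went from 14.9 ± 2.86 to 355 ± 99 CPM. The epicardial factor tbx18 went from 10.8 ± 2.61 to 26.1 ± 3.85 CPM. The fibroblast genes tcf21 (9.54 ± 2.07 and 12.2 ± 4.2 CPM) and pdgfra (55.5 ± 10.4 and 64.7 ± 19.8 CPM, SD, n = 4) were not called. klf1 library 1, lowest for most matrix genes, had a summed fibroblast and epicardial level of 2790 CPM, within the range of its group. Macrophage and granulocyte markers were higher in 22 of 24 tested (384 to 872 CPM summed in WT, 1830 to 2360 in klf1), and lymphoid markers in 7 of 8. Skin and other epithelial markers were higher in 6 of 9 and summed to 3500 to 5560 and 5480 to 8900 CPM. Nerve markers were higher in 4 of 8 and lower in 2, with elavl3 and gap43 at 0. Their summed level was nevertheless lower in klf1 hearts, 49.4 to 106 CPM in WT and 25.3 to 44.2 CPM in klf1 libraries. In WT that sum was led by syt1a, 1 of the lower genes (67.9 ± 27.4 and 5.77 ± 7.33 CPM, SD, n = 4). Of 12 tested red cell and thrombocyte markers 2 were higher and 4 lower (1080 to 1830 and 1410 to 2110 CPM). One of these 2 was klf1 itself, without which the sums were 907 to 1710 and 819 to 1380 CPM. Cardiomyocyte markers were lower in 15 of 17. The part of any of these cell types in the matrix values was not tested.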

How the data were processed

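Polyadenylated RNA of whole adult zebrafish hearts was measured in 8 libraries, 4 WT and 4 klf1 overexpressing, grouped by the genotype in the labels; the other 27 of 35 samples were not analysed here. The authors deposited raw counts per gene and library, whole numbers without normalization, per the file headers and values; 8 of 8 single-library files equalled a column of the joint table used. Kapa stranded mRNA kits were used for the libraries and Qiagen miRNeasy kits for RNA, per the labels' protocols. The submitters' processing notes name danRer10, Bowtie2 2.2.8 and deepTools 3.1.2 without roles; for RNA, the aligner, counter, annotation and use of strand were not found in these sources, so counts of close paralogs or overlapping genes are uncertain. No coordinates or sequences are given. Replicate pairs differed by more than sampling noise, with chi-square values of 6.71 to 45.7 per degree of freedom.

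In R 4.3.3, genes passing edgeR 4.0.16's filterByExpr (10493) were scaled with TMM factors and tested with the robust quasi-likelihood F-test, two-sided, on an intercept and genotype, with Benjamini-Hochberg adjustment over all tested genes. The standard error is the absolute log2 fold change over the root of F. The main fit was also run on simulated counts in which few genes changed, equally in both directions. That run has no shift in library make-up, so it cannot check the scaling used here. Shares and log2 count ratios (0.5 added to each count) were compared by exact two-sided permutation over 70 assignments; of 54 listed pairs 21 had both genes measured. Alternatives used DESeq2 1.42.0 and limma 3.58.1 (voom). Members, gene lists and pairs were chosen with earlier results of these data known. Values of every library are given for up to 4 called members a group with the smallest adjusted p, the 2 with the highest mean level, and members that make up a minority of 3 or fewer; some further members are named by range. Marker lists covered fibroblasts and epicardium, smooth muscle, endothelium, macrophages and granulocytes, lymphoid cells, red cells and thrombocytes, cardiomyocytes, cartilage and bone, epithelia and nerve.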

Additional observations from a re-analysis of the deposited data

Results flagged for a closer look

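In groups of 4 libraries, the gap between the highest or lowest library and its neighbour was compared with the whole range by Dixon's 95% criterion. Chance passes it in about 1 of 20 groups, and 8 values among 170 groups did so here, which is near that rate. Of the 8, 5 came from klf1 library 1 and 2 from WT library 3. In WT library 3, lamb1a (56.9 CPM) and lamc1 (164 CPM) stood below the other WT libraries. In klf1 library 1, lamc1 (275 CPM) and loxl3b (10.9 CPM) stood below the other klf1 libraries. In the same library the count ratios col1a2/col5a2a (1.07), lamb2/lamc1 (1.44) and sparc/col1a2 (1.15) stood apart from the other 3. With all libraries their exact permutation p was 0.114, 0.0571 and 0.114, and without klf1 library 1 it was 0.0286 for each. That is the smallest value possible there, and the library was left out because it stood apart, so no conclusion is drawn from it. In WT library 4 the ratio loxl1/loxl2a (17.9) stood above the other WT libraries.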

How the results depend on the processing

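Column names number the libraries of each genotype 1 to 4, and GEO's titles give no shared number. Same-numbered libraries did not deviate together (correlations -0.09, 0.1, -0.22 and 0.11 across genes). The highest correlation between a WT and a klf1 library was 0.37, for WT library 3 and klf1 library 1, which stood apart in the matrix genes. Its cause was not tested. With the replicate block, chosen after seeing the data, 32 members were called, 25 higher and 7 lower, and 6111 genes. Across 18 alternatives, 22 of the 25 higher calls held wherever the gene was tested (exceptions col5a2a, fbln5 and fbn2b). Of the 7 lower calls, col2a1b held under all, 4 were lost to library totals alone, where 1 member was called lower, and agrn and bgnb were lost under others too. Leaving out libraries gave 28 to 35 members called (22 to 28 higher, 5 to 8 lower), 6015 to 6788 genes called, and 17 to 19, 12 to 14 and 18 to 20 called genes of collagen processing, receptors and TGF-beta signalling. It gave differences in share, in percentage points, of 0.474 to 0.672 (matrix, of all counts), 1.12 to 4.03 (fibrillar), -10.9 to -8.76 (basement membrane), 4 to 5.89 (adhesive) and -0.169 to 0.606 (elastic fibre), of which some missed 0.05: with 1 library left out the smallest p is 0.0286, and with both WT library 3 and klf1 library 1 left out it is 0.1. Without its most counted member the fibrillar difference was -0.864 in place of 2.25, the adhesive one -2.72 and the elastic fibre one -1.12; for elastic fibre it was also -0.169 without klf1 library 1 and -0.111 without WT library 3 too. Their cause was not tested beyond that construction.

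Signs turned with library totals alone for agrn (0.05), bgnb (0.34), col15a1b (0.48), lamb1a (0.42), lamb4 (0.24), thbs3a (0.12) and thbs3b (0.28), where the median gene lay at 0.75. Members not called that crossed 0 were col15a1b (0.08 without WT library 1, 0.03 without klf1 library 1), col5a3a (-0.0082 with DESeq2 size factors, -0.01 with its test, and -0.23, -0.07, -0.06 and -0.16 without WT library 3, WT library 4, klf1 library 3 or both doubted libraries), elnb (0.02), lamb1b (-0.002 with limma-voom; -0.12, -0.0064 and -0.17 without WT library 3, klf1 library 2 or klf1 library 4), lamb2 (-0.05, -0.0042 and -0.02 without WT library 3, klf1 library 3 or klf1 library 4). Leaving out libraries took col15a1b from -0.56 to 0.08, col5a3a from -0.23 to 0.35, elnb from -1.02 to 0.02, lamb1b from -0.17 to 0.21, lamb2 from -0.05 to 0.09 and the lum/dcn log2 ratio difference from -0.59 to 0.12 (the last without klf1 library 3). The double omission was chosen after seeing the data. Depth limits col5a3b, lox, tnc, thbs4b and col11a1b, with 3 or fewer counts in some WT library and 7 to 40 over the 4 WT libraries. It also limits others, such as col8a2, with 10, 5, 4 and 8 counts in WT libraries 1 to 4, and loxl5b, with 12, 11, 8 and 7.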

Other observations

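Of the 18 matrix genes under the count minimum, col2a1a and fbln1 were at 0 in all 8 libraries, and no library held more than 15 counts of any of the others. Several had more counts in klf1 hearts: col10a1a, the collagen of hypertrophic cartilage, had 0 counts in each WT library and 2, 2, 4 and 6 in the klf1 libraries, col9a3 had 0, 0, 1 and 2 against 5, 3, 5 and 5, and loxl5a had 0, 0, 0 and 2 against 4, 5, 2 and 6. These counts are not scaled, and TMM-scaled library sizes were larger in klf1 (13564442 to 16808073) than in WT (7945586 to 8696594). The biglycan copy bgna had 0, 2, 0 and 0 counts in WT and 3, 3, 1 and 3 in klf1 libraries. Others did not share this pattern, such as loxl3a (6, 2, 2 and 1 against 3, 3, 3 and 1) and col17a1a (9, 3, 4 and 5 against 3, 3, 6 and 9). These counts are too few for a test, and most lie near the limit of 3 that a count of 0 allows. col8a1a varied within klf1 hearts, with 8, 15, 2 and 0 counts. The ceramide transfer gene col4a3bpa, set apart from the matrix genes, read 10.6 ± 1.58 CPM in WT and 12.5 ± 3.96 CPM in klf1 hearts (SD, n = 4) and was not called (edgeR adjusted p = 0.348).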
